A study of Mus musculus with 6 samples.

Results

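The BMP axis and Id genes comprised 10 genes fixed by name, which were the Id genes Id1, Id2, Id3 and Id4, the ligand genes Bmp2, Bmp4 and Bmp7, the receptor genes Bmpr1a and Bmpr2, and Smad1. Probes were assigned to them through the RefSeq accession that the array files give, and all 10 were found, with 12 probes, among the 22910 genes reached in this way. All 10 also passed the filter on dim probes, which 14345 genes passed. The samples were 6 cultures of 2D-MAOs, airway epithelial organoids from C57BL/6 mouse lung that had been dissociated and plated as a flat layer. In 3 cultures TGF-β1, a secreted growth factor, was added on day 3, and 3 control cultures received none. All were collected on day 7. As the methods read, both groups were kept from day 3 in medium that lacked noggin, a secreted BMP antagonist, and A83-01, a kinase inhibitor of TGF-β type I receptors, so that neither group had an added BMP antagonist. The sources used here describe the cultures of a group as biological replicates but do not say whether they came from separate mice, so p-values measure only the spread between these cultures, which may be technical. The TGF-β1 concentration used for the arrays is not given in the sources used here.

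BMPs are secreted ligands of the TGF-β superfamily. They bind complexes of type I receptors, such as the product of Bmpr1a, and type II receptors, such as the product of Bmpr2, and the receptors phosphorylate Smad1 and its relatives, which enter the nucleus with Smad4 and activate target genes. The Id genes are classical direct targets. Their products are helix-loop-helix proteins without a DNA-binding region, which pair with E proteins and keep them from DNA, and are known for holding cells in a less differentiated state. TGF-β itself can raise or lower Id genes depending on the cell, and the BMP and TGF-β branches share Smad4. In the lung, Bmp4 is known for its part in branching of the airway during development.

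The RefSeq promoter table for GRCm38.p6 held 7 of the 10 genes, and Id1, Bmp2 and Bmp7 were not matched. The windows of 250 bases before the start site are shown for the Id genes in it, because Smad1 complexes are known to bind GC-rich elements upstream of genes of this family. Capitals mark GGCGCC, which reads the same on both strands, and each sequence runs 5′ to 3′ on the strand of the gene.
Id2, chr12:25096093-25096342, minus strand: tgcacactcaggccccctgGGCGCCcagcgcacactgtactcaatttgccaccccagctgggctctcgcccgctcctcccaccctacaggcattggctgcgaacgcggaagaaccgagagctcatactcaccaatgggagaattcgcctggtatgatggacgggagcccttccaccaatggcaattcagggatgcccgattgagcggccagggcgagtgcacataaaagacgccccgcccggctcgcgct
Id4, chr13:48260866-48261115, plus strand: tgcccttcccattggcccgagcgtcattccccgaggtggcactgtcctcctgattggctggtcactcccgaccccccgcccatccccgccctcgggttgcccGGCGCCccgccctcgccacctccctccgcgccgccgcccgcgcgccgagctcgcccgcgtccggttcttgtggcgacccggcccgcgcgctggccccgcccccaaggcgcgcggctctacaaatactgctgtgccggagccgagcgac
Id3, chr4:136143572-136143821, plus strand: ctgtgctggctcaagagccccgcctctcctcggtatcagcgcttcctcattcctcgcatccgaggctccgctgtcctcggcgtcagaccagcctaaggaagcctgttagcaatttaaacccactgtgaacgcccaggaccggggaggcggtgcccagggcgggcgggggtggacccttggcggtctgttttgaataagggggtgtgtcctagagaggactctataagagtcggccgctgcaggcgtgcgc
GGCGCC occurred once in the windows of Id2 and Id4, starting 231 and 148 bases before the start site, and not in that of Id3. It also occurred in those of Bmpr1a and Bmpr2, 4 of 7 in all, and in 9.59% of the 32851 windows of the same length in the table. The windows of the 7 genes had a median GC content of 63.6%, against 52.4% for all windows, which bears on how often a GC-rich motif is met. The shorter Smad motif GTCT, searched on both strands, was present in 82.9% of all windows, in those of Id2 and Id3 but not in that of Id4. These are matches of letters only.

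None of the 10 genes passed the adjusted threshold in limma (adjusted p under 0.05), which 2.04% of all genes tested did. The largest differences in size were those of Id4 and Id2, with a lower mean signal after TGF-β1, and of Bmp7 and Bmpr2, with a higher one. These 4 genes had an unadjusted limma p under 0.05, where 22.2% of all genes tested had one. By this rule 2 of the 10 genes were lower, against 10.7% of all genes tested, and 2 of the 10 were higher, against 11.4%. The median log2 fold change of the 10 genes was 0.14, and that of all genes tested was -0.03. The methods' t-test left 1 of the 10 genes, Id2, with an unadjusted p under 0.05, where 17.1% of all genes tested had one. Without control replicate 1 the limma count was 2 of 10, against 12.6% of all genes, and without TGF-β1 replicate 1 it was 2 of 10, against 12.1%. Without TGF-β1 replicate 3, Id2, Id4, Bmp7 and Bmpr2 passed the adjusted threshold, at which 15.4% of all genes then passed.

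**Figure D1:**
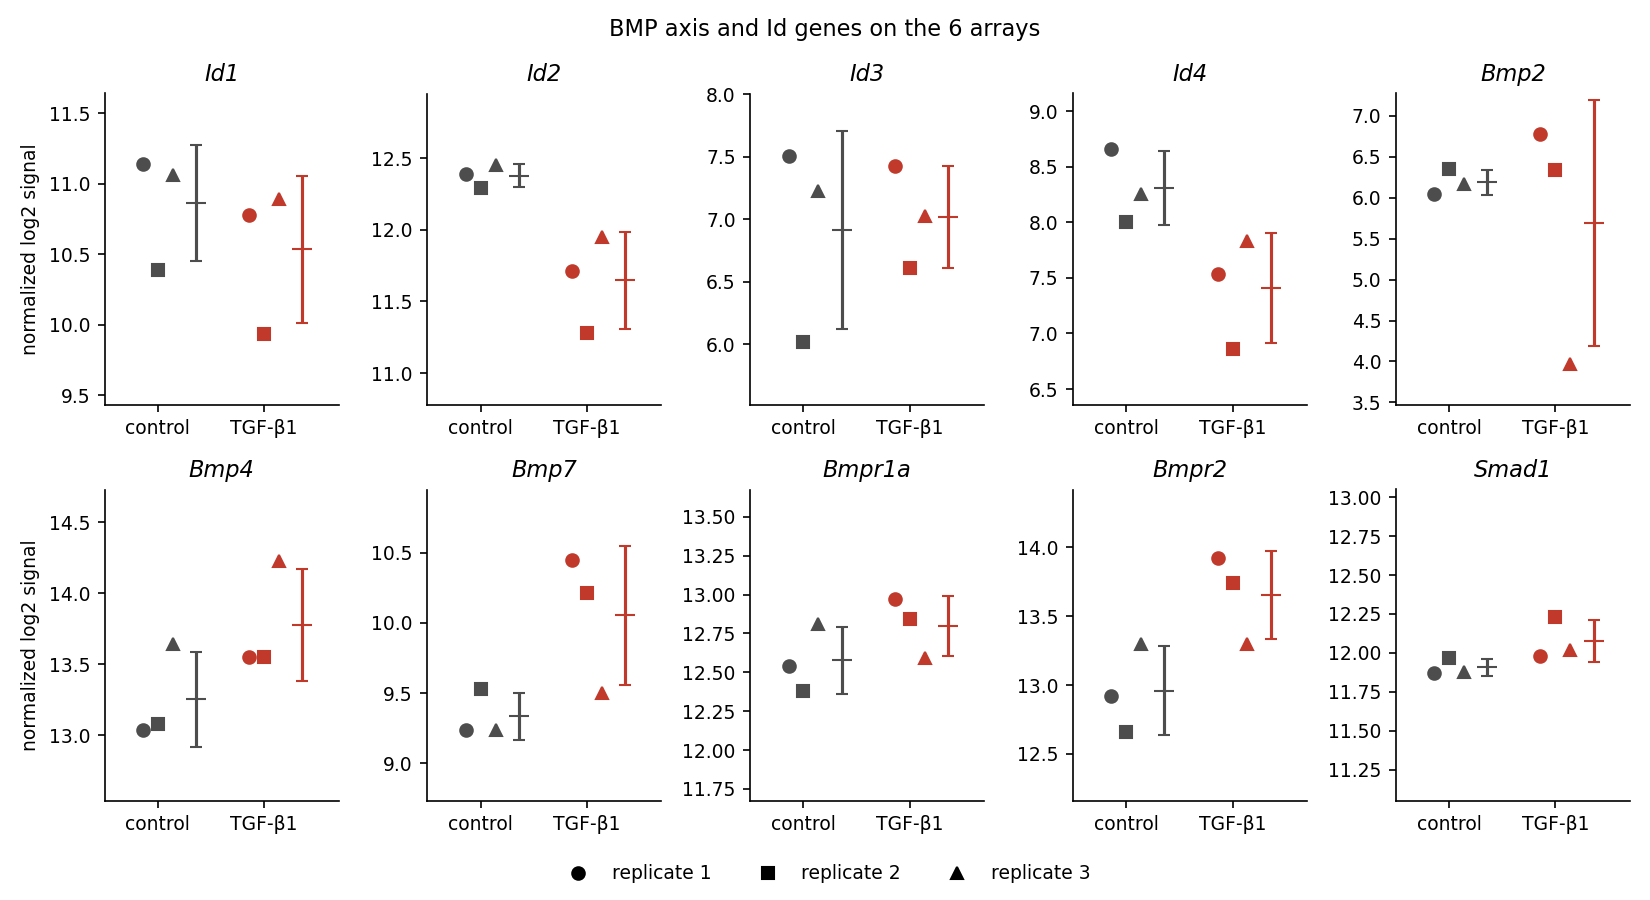
Normalized log2 signal (vertical axes, a separate scale for each gene) of the 10 genes on the 3 control and 3 TGF-β1 arrays. Symbols are arrays, and bars to their right give mean ± SD (n = 3); Id2 and Id4 lie lower on every TGF-β1 array than on any control array, and replicate 2 is the lowest of its group in all 4 Id genes.

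Among the arrays as a whole, 55.0% to 59.0% of probes were well above background, the mark the image software sets for spots clearly brighter than their surroundings. All 6 genes of a list for the response to TGF-β1 were higher on every TGF-β1 array than on every control array, with log2 fold changes of 0.65 to 4.58, where 12.9% of all genes tested were higher without overlap. Of the 6, 3 passed the adjusted threshold. TGF-β1 replicate 3 stood apart, at a Euclidean distance of 61.1 and 62.3 over all genes tested from TGF-β1 replicates 1 and 2, which were 32.3 from each other. All 7 airway epithelial markers were well above background on all arrays, with a summed linear signal of 283600 to 310700 in controls and 262300 to 358200 after TGF-β1. The 7 fibroblast markers summed to 552 to 630 in controls and 680 to 2406 after TGF-β1, with Col3a1, Lum and Pdgfrb not well above background on any array. The collagen genes Col1a1 and Col1a2 were well above background on each of the 3 TGF-β1 arrays and on none of the controls. They passed the filter only through the arrays where they are high, so no test is read from them. Dcn, the brightest of the 4 fibroblast markers tested, had a log2 signal of 8.98, 8.81 and 8.96 in the controls. After TGF-β1 the signal of Dcn was 11.1, 9.68 and 8.98 in replicates 1, 2 and 3, with a limma adjusted p of 0.273. Pdgfra had a log2 fold change of 0.21, with a limma adjusted p of 0.484. The 5 leukocyte markers summed to 1681 to 2923 in controls and 3304 to 4963 after TGF-β1, with Ptprc, Adgre1 and Lyz2 not well above background on any array. Among the leukocyte markers detected, Cd68 had a log2 fold change of 0.90 with groups that did not overlap, and Cd3e had -0.24. The 5 endothelial markers summed to 79.7 to 94.2 and 86.5 to 100.5, with Cdh5, Emcn, Kdr and Tek not well above background on any array. The part of other cells in the results below was not tested, and in such bulk samples fewer cells of a type and less RNA per cell cannot be told apart.

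Id2, which encodes an Id protein found in many epithelia, had an unadjusted limma p under 0.05 in all 17 alternative settings (by the methods' t-test, that test's own p). Its normalized log2 signal was 12.39, 12.29 and 12.45 in control replicates 1, 2 and 3, and 11.71, 11.28 and 11.95 in TGF-β1 replicates 1, 2 and 3. The controls lay within a narrow range, and every TGF-β1 array lay under all of them. TGF-β1 minus control came to -0.73 on the log2 scale (SE 0.18, 95% interval -1.16 to -0.30), or 1.66-fold lower, with a limma adjusted p of 0.0997. By an exact two-sided permutation test of the arrays p was 0.1, below which this design cannot go. When any 1 array was left out, the difference stayed between -0.88 and -0.54, and leaving out TGF-β1 replicate 3 gave a limma adjusted p of 0.0223. When the limma variance prior was made robust and allowed to follow the signal, the adjusted p was 0.0477.

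Id4, which encodes the Id protein known best from neural and mammary progenitors, had the largest difference in size among the Id genes. Its log2 signal was 8.66, 7.999 and 8.26 in the controls and 7.54, 6.86 and 7.83 after TGF-β1. The highest TGF-β1 array, replicate 3, lay just under the lowest control. Its log2 fold change was -0.90 (SE 0.28, 95% interval -1.56 to -0.23), 1.86-fold lower, with a limma adjusted p of 0.152. Without TGF-β1 replicate 3 it was -1.11, with a limma adjusted p of 0.0451. The ratio of spot to local background brightness was 4.65 to 13.9 for Id4 and 58.5 to 145.9 for Id2.

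Id1 and Id3, the Id genes most often used as readouts of BMP signalling, had no difference beyond the spread between arrays in the limma fit without blocks. With the replicate number as a block, Id1 had an unadjusted limma p of 0.0407 and a limma adjusted p of 0.224. In that setting 21.0% of all genes tested had an unadjusted p under 0.05. The log2 signal of Id1 was 11.14, 10.39 and 11.06 in the controls and 10.78, 9.93 and 10.89 after TGF-β1, and the groups overlapped. The log2 fold change of Id1 was -0.32 (SE 0.31, 95% interval -1.06 to 0.41, limma adjusted p = 0.548), so that neither a decrease of the size seen for Id2 nor a small increase lies outside the interval. Without TGF-β1 replicate 2 the value of Id1 was -0.02, and without control replicate 2 it was -0.56. That of Id3 was 0.10 (SE 0.41, 95% interval -0.86 to 1.07, limma adjusted p = 0.898). Its log2 signal ran from 6.02 to 7.51 in the controls and from 6.61 to 7.43 after TGF-β1, so the control arrays alone spanned the TGF-β1 arrays. Without control replicate 2 the value of Id3 was -0.35, and without TGF-β1 replicate 1 it was -0.10. The ratio of spot to local background was 3.07 to 8.27 for Id3.

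In each of the 4 Id genes replicate 2 was the lowest of the 3 controls and also the lowest of the 3 TGF-β1 arrays, a pattern found in 13.4% of all genes tested and in none of the other 6 members. Relative to the mean of the controls, control replicate 2 was lower by 0.47 in Id1 and by 0.90 in Id3, while Id2 differed by 0.09 only. TGF-β1 replicate 2 was lower than that mean by 0.93 in Id1 and by 1.45 in Id4. TGF-β1 replicate 3 was the nearest of the TGF-β1 arrays to the control mean in all 4 Id genes, as in 56.9% of all genes tested. The genes with a pattern most like that of Id1 over the 6 arrays were Gm11412, Mob3c and Arsb, with Pearson correlations of 0.995, 0.993 and 0.988. These are a description over 6 arrays that share their groups and slide, and 39 genes had a correlation with Id1 above 0.95.

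**Figure D2:**
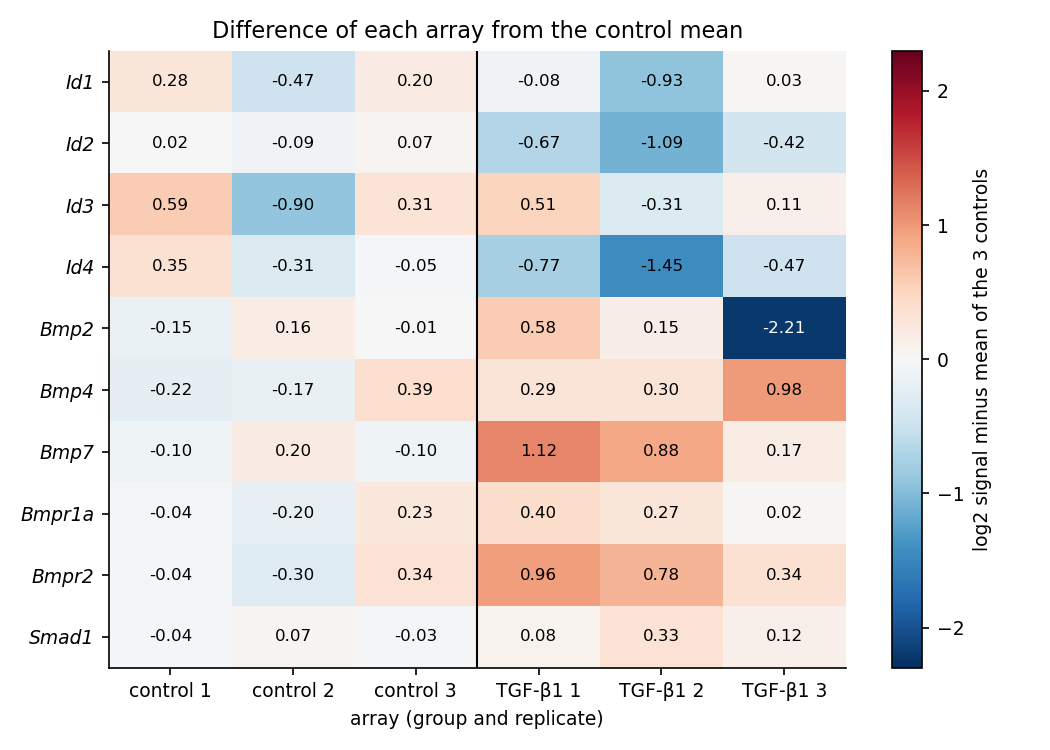
Log2 signal of each array minus the mean of the 3 controls, with genes in rows and arrays in columns; red is higher and blue is lower. The Id genes are lowest on replicate 2 of each group, and Bmp2 on TGF-β1 replicate 3, where it was not well above background, stands at -2.21.

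Among the ligand genes, Bmp7 and Bmp4 had a higher mean after TGF-β1, short of the adjusted threshold, and Bmp2 varied widely between the TGF-β1 arrays. Bmp7, which encodes a ligand made by many epithelia, had a log2 signal of 9.23, 9.53 and 9.24 in the controls and 10.45, 10.21 and 9.50 after TGF-β1. TGF-β1 replicates 1 and 2 lay above all controls, and TGF-β1 replicate 3 lay within their range. For Bmp7 the log2 fold change was 0.72 (SE 0.25, 95% interval 0.13 to 1.31), 1.65-fold higher, with a limma adjusted p of 0.172. Without TGF-β1 replicate 3 it was 1.00, with a limma adjusted p of 0.0141.

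Bmp4 had a log2 signal of 13.04, 13.08 and 13.64 in the controls and 13.55, 13.55 and 14.23 after TGF-β1. In both groups replicate 3 was the highest array, and control replicate 3 exceeded TGF-β1 replicates 1 and 2. For Bmp4 the log2 fold change was 0.52 (SE 0.25, 95% interval -0.06 to 1.11, limma adjusted p = 0.264), and its second probe had 0.32. Without TGF-β1 replicate 3 the value of Bmp4 was 0.30, and under scaling to the 75th percentile it was 0.34. Bmp2, a ligand close in sequence to that of Bmp4, had the widest spread of all members. Its log2 signal was 6.04, 6.35 and 6.17 in the controls and 6.77, 6.33 and 3.97 after TGF-β1, and on TGF-β1 replicate 3 it was not well above background. The log2 fold change of -0.49 (SE 0.68, 95% interval -2.10 to 1.11, limma adjusted p = 0.68) rests on that array. Without it, the value was 0.37, with a limma adjusted p of 0.185. For Bmp2 the ratio of spot to local background was 1.82 to 5.38.

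The type II receptor gene Bmpr2 had a log2 signal of 12.92, 12.66 and 13.30 in the controls and 13.92, 13.74 and 13.30 after TGF-β1. TGF-β1 replicate 3 exceeded control replicate 3 by 0.0033 only, so the groups barely failed to overlap. Bmpr2 had a log2 fold change of 0.69 (SE 0.22, 95% interval 0.17 to 1.22), 1.62-fold higher, with a limma adjusted p of 0.154. Without TGF-β1 replicate 3 it was 0.87, with a limma adjusted p of 0.0403.

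For Bmpr1a, the gene of a type I receptor for Bmp2 and Bmp4, the difference was small. Its log2 signal was 12.54, 12.38 and 12.81 in the controls and 12.97, 12.84 and 12.59 after TGF-β1, with overlapping groups. Bmpr1a had a log2 fold change of 0.23 (SE 0.16, 95% interval -0.15 to 0.61, limma adjusted p = 0.405), and the second probe had 0.19. Without control replicate 2 the value of Bmpr1a was 0.13, and under scaling to the 75th percentile it was 0.07. Smad1, which carries the BMP signal to the nucleus, had the narrowest interval of all members. Its log2 signal was 11.87, 11.97 and 11.88 in the controls and 11.98, 12.23 and 12.02 after TGF-β1, and the groups were separated by a narrow gap. Smad1 had a log2 fold change of 0.17 (SE 0.11, 95% interval -0.09 to 0.44, limma adjusted p = 0.377), which leaves a change of 2-fold outside the interval in either direction. Without TGF-β1 replicate 2 the value of Smad1 was 0.10, and under scaling to the 75th percentile it was 0.04.

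Groups without overlap were found in 4 of the 10 genes, Id2 and Id4 among the lower and Bmpr2 and Smad1 among the higher. Of all genes tested, 26.4% had groups without overlap, with 13.5% lower and 12.9% higher in this way.

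**Figure D3:**
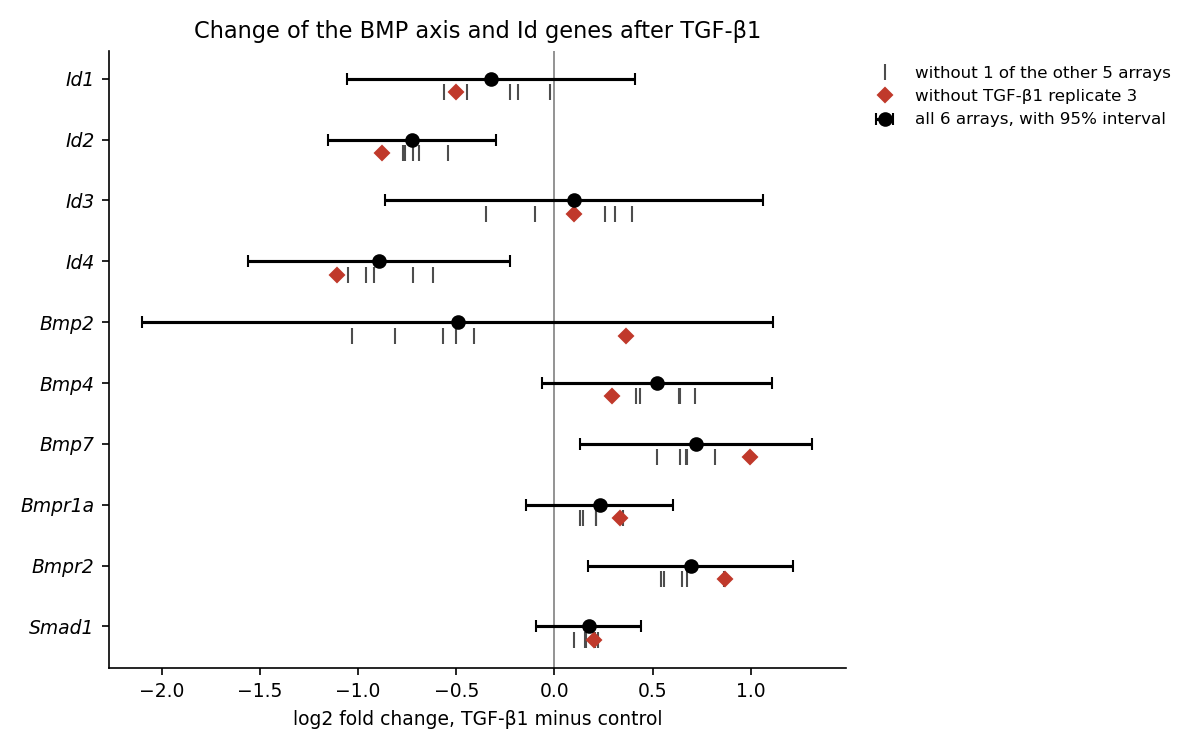
Log2 fold change of the 10 genes, TGF-β1 minus control (horizontal axis), from all 6 arrays with its 95% interval (circles and bars) and with 1 array left out (ticks; diamonds mark the value without TGF-β1 replicate 3). Bmp2 turns from -0.49 to 0.37 without TGF-β1 replicate 3, whereas Id2, Id4, Bmp7 and Bmpr2 move away from 0.

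The arrays lay in 2 rows of 1 slide, with replicate 3 of each group in row 2 and the other 4 arrays in row 1. Within row 1, Id2, Bmp4, Bmp7, Bmpr1a and Bmpr2 had a limma adjusted p under 0.05, as did 26.8% of all genes tested, with log2 fold changes of -0.84, 0.49, 0.95, 0.45 and 1.04. In row 2, with 1 array a group and no test, the difference was -0.49 for Id2, -0.43 for Id4, 0.26 for Bmp7 and 0.0033 for Bmpr2. For Bmpr1a it was -0.21, opposite in direction to row 1. The same difference in row 2 was 0.59 for Bmp4, and none is given for Bmp2, which was not well above background on the TGF-β1 array of that row. With the row as a block in the fit, none of the 10 genes passed the adjusted threshold, which 2.75% of all genes tested did. Bmp4 came nearest, with an unadjusted limma p of 0.00176 and a limma adjusted p of 0.0556.

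The rest of the pathway was described through 51 further genes, listed by role from general knowledge. Of these, 33 passed the filter, and the other 18 had no probe well above background on any array. The median log2 fold change of the 33 was 0.04, with 19 higher and 14 lower. Only Fst rose at the adjusted threshold (1 of 33, against 2.04% of all genes tested), and none fell. At an unadjusted limma p under 0.05 there were 11 of 33, against 22.2% of all genes tested. Of the 33, 10 were higher, against 11.4% of all genes tested, and 1 was lower, against 10.7%. Under scaling to the 75th percentile there were 7 higher and 1 lower, 8 of 33, against 23.5% of all genes tested. Acvr2b, Rgma, Rgmb, Ski and Smurf1 were not among those 8, with log2 fold changes of 0.27, 0.17, -0.34, 0.28 and 0.32 in that scaling.

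Fst encodes follistatin, a secreted protein that binds activins and, less tightly, several BMPs. Its log2 signal was 8.21, 8.91 and 8.83 in the controls and 11.22, 11.22 and 10.35 after TGF-β1. Every TGF-β1 array lay well above every control, and TGF-β1 replicate 3 was the lowest of the 3. Fst thus rose by 2.28 on the log2 scale (SE 0.29), 4.86-fold, with a limma adjusted p of 0.0174. It ranged from 2.06 to 2.57 with an array left out, and the limma adjusted p stayed under 0.05 without control replicate 3 or TGF-β1 replicate 3 but reached up to 0.0819 without any one of the other 4.

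Noggin, the antagonist that had been left out of the medium, is encoded by Nog. The log2 signal of Nog was 7.67, 7.37 and 7.44 in the controls and 8.08, 8.05 and 8.08 after TGF-β1. The TGF-β1 arrays lay close together and above all controls. For Nog the log2 fold change was 0.58, with an SE of 0.12 and a limma adjusted p of 0.0627. It passed under scaling to the 75th percentile, with 0.66, and without TGF-β1 replicate 3, with a limma adjusted p of 0.0377. Of the other secreted antagonists and modulators, Chrd, Nbl1, Twsg1 and Kcp had log2 fold changes of -0.21 to 0.21, and 6 genes including Grem1 and Chrdl1 were not well above background on any array.

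Inside the cell, Smad7 and Ski, which encode inhibitors of Smad signalling, and Smurf1, which encodes a ubiquitin ligase for Smad1 and its relatives, had an unadjusted limma p under 0.05. Their log2 fold changes were 0.82, 0.45 and 0.49, and their limma adjusted p were 0.0747, 0.0882 and 0.117. Smad6, the inhibitory Smad known best for acting on the BMP branch, had -0.16 (limma adjusted p = 0.672), and its groups overlapped. Bambi, which encodes a decoy receptor, had 0.55 (limma adjusted p = 0.261).

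Among the other receptors and co-receptors, 8 of 9 genes were tested. Acvrl1, Acvr1, Acvr2b and Rgma were higher by unadjusted p, with log2 fold changes of 1.00, 0.62, 0.39 and 0.29. Acvr1 and Acvrl1 encode type I receptors that signal to Smad1, Acvr2b a type II receptor and Rgma a BMP co-receptor. Rgmb, the gene of a related co-receptor, was lower, with -0.46. Their limma adjusted p lay between 0.117 and 0.191, and only Acvr1 and Acvrl1 of these passed without TGF-β1 replicate 3, at 0.0229 and 0.0435.

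Of the other ligand genes, 5 of 10 were tested and none had an unadjusted p under 0.05. The largest difference was that of Bmp3, with -0.46 (limma adjusted p = 0.286). Smad5, which acts beside Smad1, had 0.20, and Smad4 had 0.12. Of the other target genes, 5 of 10 were tested. Hey1, which encodes a transcriptional repressor, was higher on each TGF-β1 array than on each control, with 0.79 (SE 0.19, limma adjusted p = 0.0937), and Gata3 had -0.55 (limma adjusted p = 0.266). Msx1 and Msx2, homeobox genes known as BMP targets, had -0.22 and 0.03.

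The genes of the E proteins, which Id proteins bind, were all well above background on all arrays. Tcf4 had a log2 fold change of 0.33, Tcf3 of 0.19 and Tcf12 of 0.08, and none had an unadjusted p under 0.05. Their limma adjusted p were 0.24, 0.376 and 0.734.

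**Figure D4:**
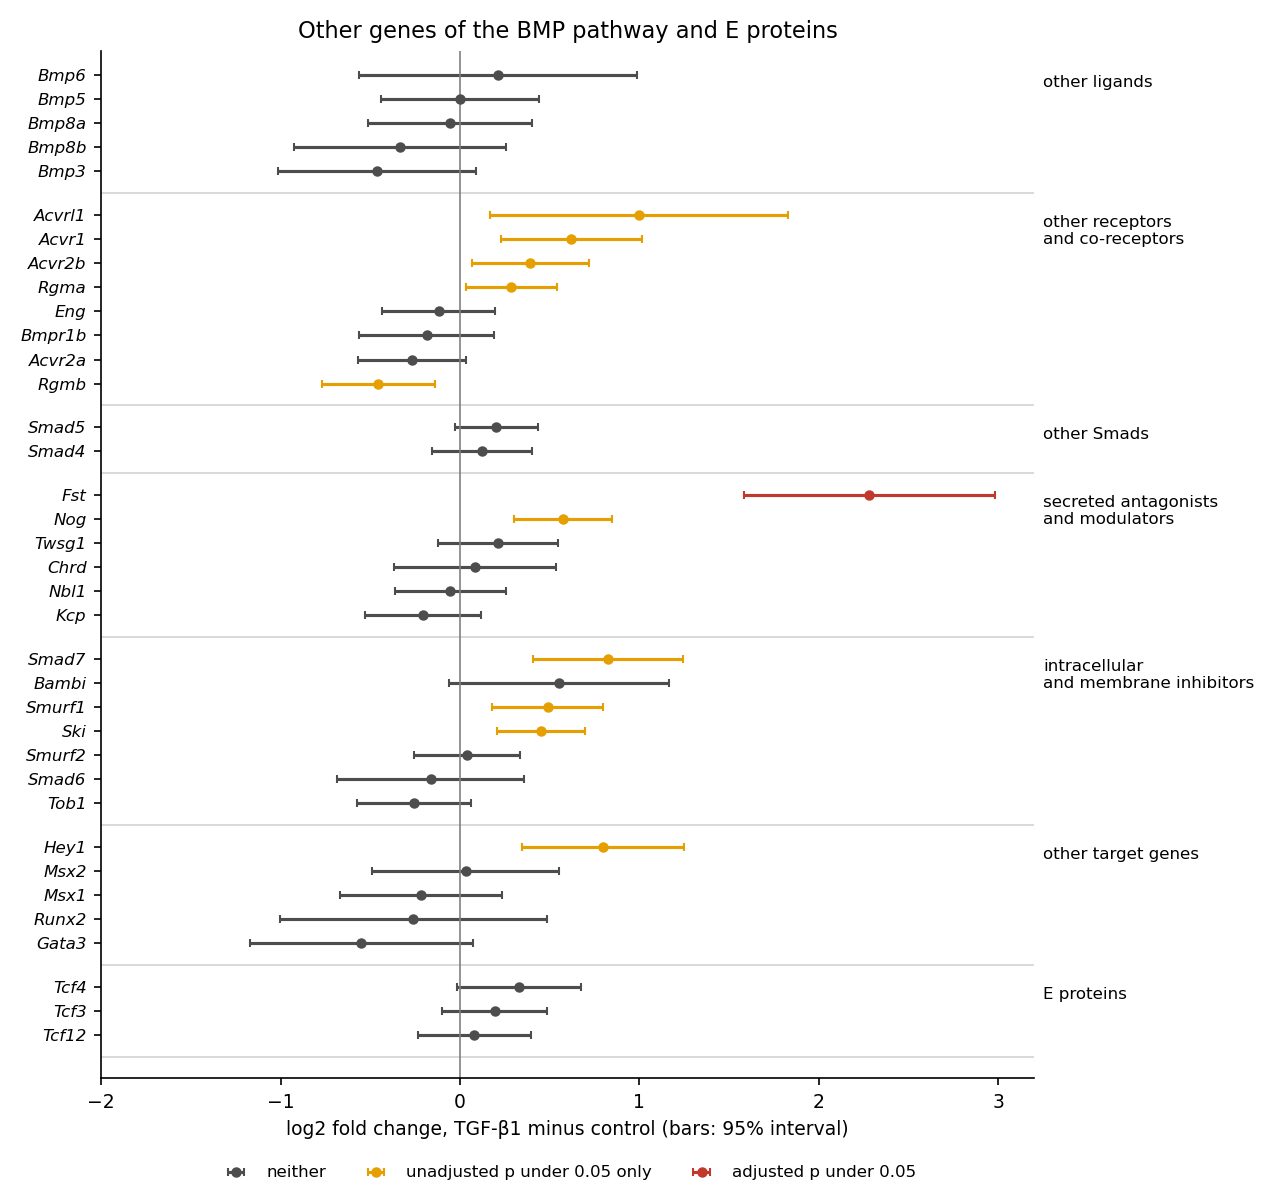
Log2 fold change, TGF-β1 minus control (horizontal axis), with its 95% interval for the 33 other BMP pathway genes tested and the 3 E protein genes, grouped by role. Colour gives the limma call; Fst, at 2.28, is the only gene past the adjusted threshold, and 10 further genes had only an unadjusted p under 0.05.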

How the data were processed

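RNA of each of 6 cultures was hybridized with Cy3 label to 1 Agilent mouse array. The deposited files hold, per spot, the intensity on a linear scale after background subtraction and detrending by Agilent Feature Extraction 11.0.1.1, without normalization between arrays, and marks for spots well above background. Control spots and spots marked uneven or as outliers were left out, spots of a probe were averaged, and log2 signals were normalized by quantiles, as in the study. RefSeq accessions were matched to symbols of GRCm38.p6 (32991 of 56599 probes). A probe was tested where at least 3 of 6 arrays had it well above background, and a gene was its probe with the highest mean signal. limma 3.58.1 in R 4.3.3 compared 3 TGF-β1 with 3 control arrays, with Benjamini-Hochberg adjustment over all 14345 genes. The number of arrays limits the precision. The fit was tested on simulated data.

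The members and lists were chosen with earlier results of these data known. Named were all members, pathway genes with an unadjusted p under 0.05, the largest change of each role, the E proteins and the 3 genes most correlated with Id1; further genes were named for their known role after their values were seen. The alternatives tried were array weights, a robust variance prior that follows the signal, 75th percentile scaling in place of quantiles, normexp correction of median spot signals (offset 50), no filter or a filter on all 6 arrays, averaged probes of a gene, a block for slide row or replicate number, slide row 1 alone, each array left out, and the unpaired test named in the methods (the methods' t-test).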

Additional observations from a re-analysis of the deposited data

How the results depend on the processing

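Id1, Id2, Id4, Bmp4, Bmp7, Bmpr1a, Bmpr2 and Smad1 kept the direction of their difference under all 17 alternatives, but not its size: with an array left out Id1 ranged from -0.56 to -0.02, Bmp4 from 0.30 to 0.72, Bmpr1a from 0.13 to 0.35 and Smad1 from 0.10 to 0.22. Id3 turned to -0.35 without control replicate 2 and to -0.10 without TGF-β1 replicate 1, and ranged from -0.35 to 0.40 with an array left out. Bmp2 turned to 0.26 with array weights, 0.36 within slide row 1 and 0.37 without TGF-β1 replicate 3, and ranged from -1.03 to 0.37 with an array left out. The count of members at the adjusted threshold, 0 of 10, became 1 with the trended robust prior, where 3.53% of all genes tested passed. The count was 5 with array weights (34.7% of all genes) and 5 within slide row 1 (26.8%). With an array left out it lay between 0 and 4, the highest without TGF-β1 replicate 3 (15.35%). At the unadjusted threshold the count of 4 members became 1 by the methods' t-test (17.1% of all genes), which with Benjamini-Hochberg adjustment called none. The count was 5 with the trended robust prior (23.3%) and 5 with the slide row as a block (24.2%). It was 6 with array weights (48.1%) and 6 within slide row 1 (43.9%). With an array left out it lay between 2 and 4. The pathway count of 1 (Fst) became 2 under scaling to the 75th percentile (2.29% of all genes) and 2 with normexp background (3.00%). The pathway count was 0 of 51 without a filter (0.323%), 3 with the trended robust prior (3.53%) and 12 with array weights (34.7%). It was 3 with the slide row as a block (2.75%), 7 within slide row 1 (26.8%) and 0 by the methods' t-test (0.0627%). With an array left out it lay between 0 and 6, the highest without TGF-β1 replicate 3 (15.35%). The unadjusted pathway count of 11 of 33 became 19 with array weights, where 48.1% of all genes tested had such a p, and lay between 8 and 15 with an array left out, the highest without TGF-β1 replicate 3, where 35.6% of all genes had one. The causes were not tested.

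Whether the replicate numbers pair the arrays was not settled. Deviations from the group means correlated by -0.01, 0.33 and -0.05 between arrays numbered 1, 2 and 3. Between arrays of unlike number in the 2 groups these correlations ran from -0.37 to 0.25. With the replicate block, no member and no pathway gene (0) passed the adjusted threshold, as against 0.718% of all genes tested, and 6 members had an unadjusted p under 0.05, as did 21.0% of all genes. Signals of Bmp2 and Id3 lie close to their local background, which limits these genes.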
